A study of Mus musculus with 5 samples.

Results

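The genes described here make, fold, inspect and discard proteins in the endoplasmic reticulum (ER), or sense when that work falls behind. A list of 36 symbols was looked up in the deposited gene table: general chaperones and co-chaperones (12), lectin chaperones (2), disulfide isomerases with their oxidase (6), genes of ER-associated degradation (8), sensors and transducers of the unfolded protein response (5) and genes of the translocon (3). Members were kept where their mean count over the 5 libraries was at least 20, which left 35 of the 36. The exception was Derl3, a derlin of the degradation machinery, which had 0 counts in every library. The table held 45777 genes, of which 15462 were tested, and all 35 kept genes were among them.

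The cells were MG5, a mouse microglial line with genotype WT in the labels, grown in 30% DMEM and 70% medium conditioned by A1 cells, which are astrocyte-like. The groups were untreated cells (1 library, replicate 3), cells given 10 µM bexarotene (BEX) for 6 h (3 libraries) and cells given 10 µM 6OHA for 6 h (1 library, replicate 2). BEX is a clinical agonist of the retinoid X receptor (RXR), and 6OHA is another RXR agonist known here by its code name, so the question is how the responses to these agonists compare. The design has 3 samples in each group, and the remaining untreated and 6OHA samples were not analysed here. Neither a vehicle nor a time is labelled for the untreated library, so handling or vehicle and agonist cannot be told apart in comparisons with it. All libraries come from 1 line, and whether replicates came from separate cultures is not labelled. The p-values therefore reflect the spread among these libraries alone, which may be technical.

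Libraries held 33823181 to 40545305 counts. All 12 microglia and macrophage markers exceeded 20 counts in some library, with a summed level of 7025 to 7382 TPM, a transcript level scaled for length and depth. Astrocyte markers summed to 9.37 to 15.4 TPM, neuron markers to 3.84 to 6.54 TPM, and fibroblast and endothelial markers to 5.11 to 6.26 TPM. Aqp4, Sox9, Mog, Olig2, Col1a1 and Col1a2 were at 0 in every library, and Gfap had 0 counts in all but the 6OHA library, which had 4. Above 20 counts in some library were 2 of 8 astrocyte and 2 of 5 neuron markers. So were 2 of 4 oligodendrocyte markers and 2 of 6 fibroblast and endothelial markers. Oligodendrocyte markers summed to 33.3 to 43.0 TPM, almost all of it from Mbp.

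The ER holds a chaperone system centred on BiP (Hspa5), which binds unfolded chains and also keeps the stress sensors quiet. When unfolded proteins accumulate, the sensor IRE1 (Ern1) splices Xbp1 mRNA, PERK (Eif2ak3) slows translation and favours synthesis of ATF4, and ATF6 is cut in the Golgi to release a transcription factor. The spliced XBP1 and cleaved ATF6 proteins then raise chaperones, disulfide isomerases and ER-associated degradation (ERAD), which pulls misfolded proteins back to the cytosol for the proteasome. Gene counts add spliced and unspliced Xbp1 mRNA together, and they do not report the cutting of ATF6 or the phosphorylation of PERK.

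The best known DNA element of this response is the ER stress response element (ERSE), CCAAT and CCACG with 9 bases between them. Both strands of the 250 bases before each start were searched for it in RefSeq promoters (GRCm38.p6), where 29 of the 35 genes had an entry. Exact copies stood before 8 of these 29 genes, against 0.113% of all 32851 promoter windows. A related form, ERSE-II (ATTGG and CCACG with 1 base between them), stood before Herpud1, and in 0.0304% of all windows. The sites are shown because they mark the members that carry the textbook element of ER stress, whose values follow. Each site is given 5′ to 3′ on the strand that reads in the motif's order, with 10 flanking bases and the motif's letters in capitals.
Hspa5, chr2:34772015-34772053, + strand: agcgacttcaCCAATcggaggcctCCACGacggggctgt
Hsp90b1, chr10:86705628-86705666, - strand: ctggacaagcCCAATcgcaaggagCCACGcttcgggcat
Hsp90b1, chr10:86705523-86705561, + strand: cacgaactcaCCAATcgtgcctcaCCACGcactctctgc
Calr, chr8:84847065-84847103, + strand: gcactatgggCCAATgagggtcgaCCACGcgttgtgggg
Canx, chr11:50325790-50325828, - strand: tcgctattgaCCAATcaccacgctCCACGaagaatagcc
Pdia6, chr12:17266481-17266519, + strand: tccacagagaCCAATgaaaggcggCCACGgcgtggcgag
Dnajc3, chr14:118937817-118937855, + strand: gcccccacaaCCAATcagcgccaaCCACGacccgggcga
Creld2, chr15:88819510-88819548, - strand: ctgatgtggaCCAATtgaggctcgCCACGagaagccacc
Syvn1, chr19:6046522-6046560, + strand: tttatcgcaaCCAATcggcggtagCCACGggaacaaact
Herpud1 (ERSE-II), chr8:94386367-94386397, + strand: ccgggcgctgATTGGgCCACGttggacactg

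The core letters of the unfolded protein response element, TGACGTGG, were in 0 of the 29 promoters and in 0.563% of all windows. Direct repeats of AGGTCA, the form bound by RXR pairs, were likewise in 0 of the 29, with a spacing of 1 base in 0.0335% and of 4 bases in 0.0152% of all windows. A match is only a description of these letters, and no match says only that they are not in this window. The bases before Ern1 and Xbp1 are printed because these genes rose with both agonists. Capitals mark CCACG, which 28.3% of all windows hold, and CCAAT, which 33.8% hold and which neither window has.
Ern1, chr11:106487797-106488046, - strand: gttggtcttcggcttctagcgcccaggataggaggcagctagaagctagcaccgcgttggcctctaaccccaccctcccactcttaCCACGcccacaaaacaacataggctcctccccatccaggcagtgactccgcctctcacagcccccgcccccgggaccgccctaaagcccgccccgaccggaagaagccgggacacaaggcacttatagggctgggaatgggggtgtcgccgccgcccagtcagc
Xbp1, chr11:5520391-5520640, + strand: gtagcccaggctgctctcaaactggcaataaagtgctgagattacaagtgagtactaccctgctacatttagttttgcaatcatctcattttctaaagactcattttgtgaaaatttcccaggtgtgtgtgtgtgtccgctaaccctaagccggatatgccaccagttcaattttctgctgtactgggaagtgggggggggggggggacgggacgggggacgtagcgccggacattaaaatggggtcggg

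Per transcript length, the members took 9061 TPM in the untreated library, 9106 to 9403 TPM with BEX and 9419 TPM with 6OHA, or 0.906% to 0.942% of all TPM. Calr, the calcium-binding lectin chaperone, was highest in every library at 1456 to 1538 TPM, followed by Hspa5 at 1305 to 1414 TPM. P4hb (741 to 765 TPM), Pdia3 (649 to 715 TPM) and Hsp90b1 (605 to 665 TPM) came next in mean level. Ranges of Pdia3 and Hsp90b1 overlapped, whereas those of Calr, Hspa5 and P4hb did not overlap. The sensors Eif2ak3 and Ern1 ranked 33 and 34 of the 35 by mean TPM, with 19.4 to 23.7 and 11.9 to 21.2 TPM, and the isomerase Pdia5 came last at 3.57 to 5.42 TPM. Xbp1 ranked 15 at 155 to 196 TPM, Atf6b 23 at 60.2 to 73.8 TPM and Atf6 29 at 36.2 to 44.1 TPM. The coefficient of variation over the 3 BEX libraries was 0.528% to 6.59% by gene, with a median of 2.58%.

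**Figure D1:**
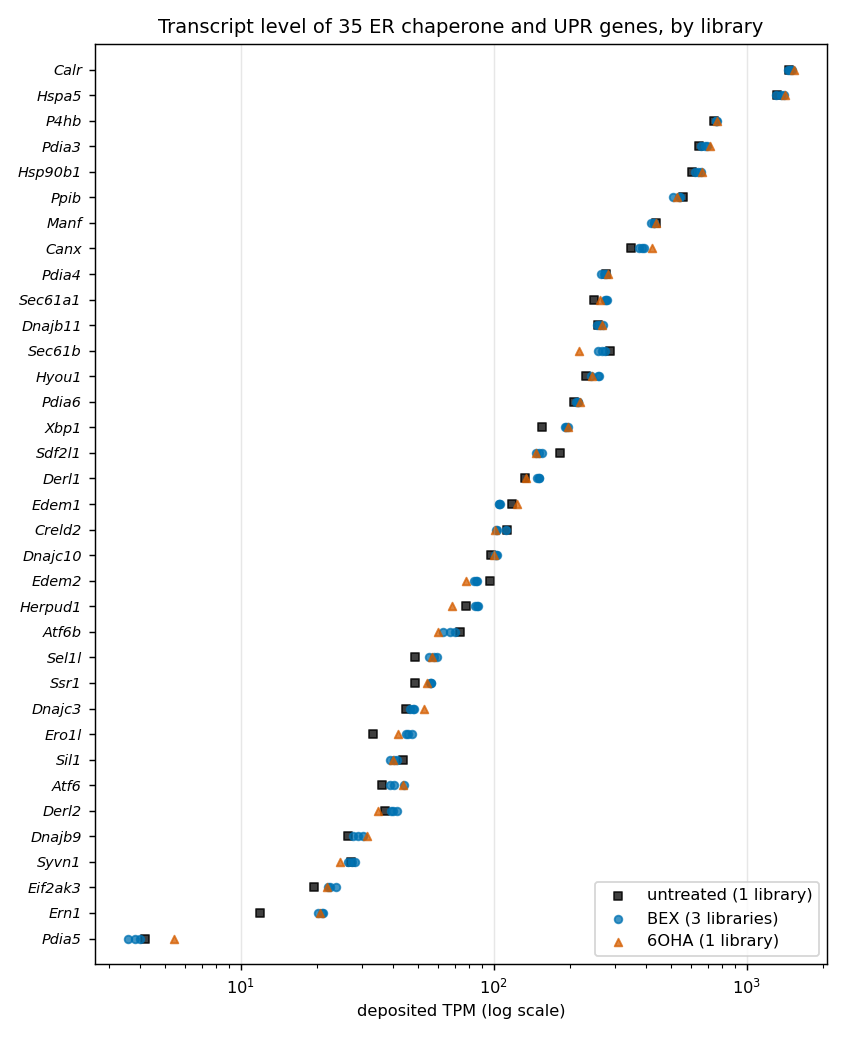
Deposited TPM (log axis) of the 35 kept genes in each library, ordered by mean level; squares are untreated, circles BEX and triangles 6OHA. Levels span from Calr at 1456 to 1538 TPM down to Pdia5 at 3.57 to 5.42 TPM, and Ern1 stands apart in the untreated library (11.9 TPM against 20.2 to 21.2 TPM in the treated libraries).

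BEX raised the IRE1 sensor and its substrate while the large chaperones stayed close to their untreated level. Ern1 rose 1.69-fold and Xbp1 1.21-fold, the ER oxidase Ero1l rose 1.34-fold, and Sel1l and Ssr1 rose by smaller amounts. Sdf2l1, Edem1 and Edem2 fell. Calls rest on the quasi-likelihood test of edgeR, with p-values adjusted over the 15462 genes by Benjamini-Hochberg, and a gene with an adjusted p under 0.05 counts as called. By this rule 8 of the 35 members were called, 5 higher and 3 lower, against 13.6% of all tested genes (7.55% higher and 6.03% lower). The members' median log2 fold change was 0.0152, beside -0.0014 over all tested genes, and 30 of the 35 changed by under 1.2-fold. The share of all tested genes that changed by under 1.2-fold was not counted.

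With 6OHA, Ern1, Xbp1 and Ero1l were higher too, together with Canx, and 5 members were lower. Ern1 rose 1.66-fold, Xbp1 1.22-fold, Ero1l 1.21-fold and Canx 1.17-fold. Sdf2l1, Edem2, Herpud1, Atf6b and Sec61b fell. Of the 35 members 9 were called, 4 higher and 5 lower, against 14.8% of all tested genes (7.59% higher and 7.19% lower). The median was 0.0146, beside -0.0031 over all genes. Both comparisons share the single untreated library, so calls in both are not independent. In both, 5 members were called, each in the same direction. The share of all tested genes called in both was not counted.

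Set directly against BEX, 6OHA left Edem1 higher and Herpud1, Sec61b and Derl1 lower. These 4 calls of 35 (1 higher, 3 lower) stand beside 6.53% of all tested genes (2.4% higher and 4.13% lower), and the median was -0.0264 beside -0.004. The shares of members called were 22.9%, 25.7% and 11.4% in the 3 comparisons, each above its background. Members are abundant transcripts, and their median SE was 0.0509, 0.0625 and 0.0512 beside 0.104, 0.129 and 0.106 over all tested genes. A smaller SE lets smaller changes be called, and whether this bears on the shares was not tested. No comparison called the other 22 of the 35. Over all genes, the share of calls that were higher was 55.6%, 51.3% and 36.7% in the 3 comparisons, and 67.7%, 62.2% and 24.7% by limma-trend on log2(TPM + 1).

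**Figure D2:**
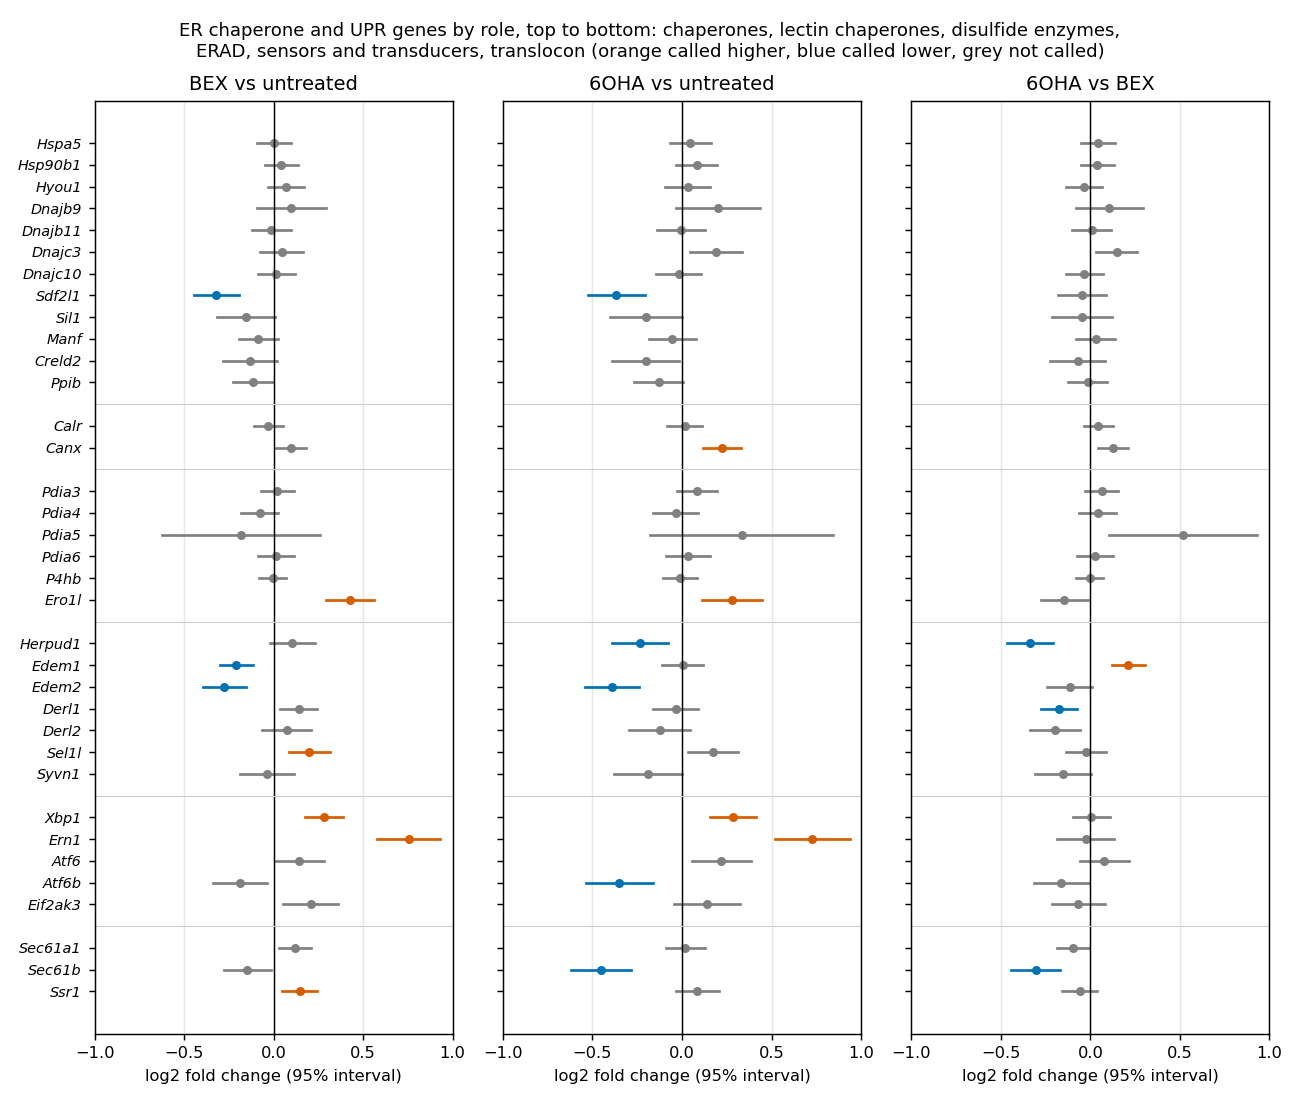
Log2 fold change (horizontal axis) with its 95% interval from the fit for each kept gene, by role, in the 3 comparisons; orange marks genes called higher, blue genes called lower, grey genes not called. Ern1 lies farthest to the right in both comparisons with untreated cells (0.75 with BEX, 0.73 with 6OHA), most chaperone intervals cross 0, and Pdia5, the least abundant member, has the widest intervals.

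Among the sensors, Ern1 encodes IRE1α, the kinase and RNase that splices Xbp1 (Entrez gene 78943, chromosome 11, 106397620 to 106487796). It stood at 22.9 CPM in untreated cells (CPM being depth-scaled counts), at 38.7, 39.3 and 38.1 CPM in the BEX libraries and at 38.0 CPM with 6OHA. All 4 treated libraries lay within 38.0 to 39.3 CPM, and the untreated library lay well below them. The log2 fold change was 0.75 ± 0.081 (SE) with BEX (adjusted p = 3.1e-05) and 0.73 ± 0.097 with 6OHA (adjusted p = 0.000333). The difference between the agonists was -0.027, with a 95% interval of -0.184 to 0.13.

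Xbp1, the mRNA that IRE1 splices into the code for a transcription factor (Entrez gene 22433, chromosome 11, 5520641 to 5525993), also rose with both agonists, by a smaller amount. Its level was 167 CPM untreated, 202, 199.7 and 208 CPM with BEX, and 204 CPM with 6OHA. Every treated library again exceeded the untreated one. The log2 fold change was 0.28 ± 0.049 with BEX (adjusted p = 0.00181) and 0.29 ± 0.059 with 6OHA (adjusted p = 0.00676), and the agonists differed by 0.0053, with an interval of -0.0986 to 0.109. Ern1 and Xbp1 were called in both comparisons under every alternative run.

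The remaining sensors moved less and not in one direction. Eif2ak3, which encodes PERK, had 41.6 CPM untreated, 47.4, 49.5 and 47.3 CPM with BEX and 45.9 CPM with 6OHA, and was not called (adjusted p = 0.0724 and 0.324). Atf6 had 130 CPM untreated, 141, 154 and 138 CPM with BEX and 152 CPM with 6OHA (adjusted p = 0.17 and 0.076). In both genes the untreated library was the lowest of the 5. Atf6 passed with 6OHA when BEX replicate 2 or 3 was left out (0.219, adjusted p = 0.00825, and 0.22, adjusted p = 0.031).

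Atf6b, a relative of ATF6 that is cut in the same way, went the other way. It had 91.4 CPM untreated, 75.3, 79.9 and 85.3 CPM with BEX and 71.7 CPM with 6OHA. The untreated library was the highest, and only the 6OHA comparison passed (log2 fold change -0.35 ± 0.086, adjusted p = 0.0167; BEX -0.19 ± 0.069, adjusted p = 0.0966). A direct comparison of the agonists did not pass (-0.16 ± 0.071, adjusted p = 0.222). BEX passed without BEX replicate 2 (-0.185, adjusted p = 0.0428) or 3 (-0.232, adjusted p = 0.0165). With offsets for GC content and transcript length the 6OHA value was -0.065 (adjusted p = 0.73). Summed over the 5 sensors and transducers, the level was 296 TPM untreated, 340 to 348 TPM with BEX and 343 TPM with 6OHA. Xbp1 alone held most of each sum and of its rise, with 155 TPM untreated, 192 to 196 TPM with BEX and 196 TPM with 6OHA.

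Of the general chaperones and co-chaperones, 11 of 12 were not called with either agonist. The 1 called with each stands beside 13.6% of all tested genes called with BEX and 14.8% with 6OHA. Hspa5, which encodes BiP (Entrez gene 14828, chromosome 2, 34772090 to 34776529), had 1623 CPM untreated, 1628, 1552 and 1694 CPM with BEX and 1676 CPM with 6OHA. The untreated and 6OHA values both lay inside the BEX range. Its fold change was 1.0 with BEX, with a 95% interval of 0.938 to 1.07, and 1.03 with 6OHA, with an interval of 0.953 to 1.12. Hsp90b1, the ER HSP90 paralog GRP94, had 805 CPM untreated, 823, 804 and 862 CPM with BEX and 852 CPM with 6OHA, with intervals of 0.966 to 1.1-fold and 0.978 to 1.15-fold.

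Of the 12 general chaperones and co-chaperones, Sdf2l1 was the 1 that was called, with either agonist. Sdf2l1 works with BiP and its J-domain partners to keep substrates soluble (Entrez gene 64136, chromosome 16, 17130138 to 17132383). It had 97.7 CPM untreated, 80.3, 75.6 and 79.3 CPM with BEX and 75.8 CPM with 6OHA. All treated libraries lay below the untreated one, and the 6OHA value lay within the BEX range. The log2 fold change was -0.32 ± 0.059 with BEX (adjusted p = 0.00257) and -0.37 ± 0.073 with 6OHA (adjusted p = 0.00541). With offsets for GC content and length the BEX call held (-0.216, adjusted p = 0.0344) and the 6OHA call did not (-0.15, adjusted p = 0.277).

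Besides Hspa5 and Hsp90b1, the uncalled chaperones included Hyou1 (GRP170, a large HSP70 relative that acts on BiP). They also included the J-domain proteins Dnajb9, Dnajb11, Dnajc3 and Dnajc10 and the BiP exchange factor Sil1. The rest were the secreted stress proteins Manf and Creld2 and the proline isomerase Ppib. Over all these uncalled genes log2 fold changes ran from -0.15 (Sil1) to 0.098 (Dnajb9) with BEX. With 6OHA they ran from -0.2 (Creld2) to 0.2 (Dnajb9). Dnajb9, a well-known target of XBP1, had 23.7 CPM untreated, 24.1 to 26.5 CPM with BEX and 27.3 CPM with 6OHA (adjusted p = 0.537 and 0.247). The 6OHA library was the highest for Dnajb9 and the untreated one the lowest, a difference that did not pass. Dnajc3, known as p58IPK, was at 0.19 ± 0.066 with 6OHA (adjusted p = 0.0738) and passed without BEX replicate 2 (adjusted p = 0.0326).

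Calr and Canx fold glycoproteins by holding their trimmed sugars. Calr had a fold change of 0.981 with BEX and 1.01 with 6OHA and was not called. Canx, the membrane-bound lectin (Entrez gene 12330, chromosome 11, 50293957 to 50325673), had 721 CPM untreated, 782, 751 and 780 CPM with BEX and 841 CPM with 6OHA. The 6OHA library was the highest and the untreated one the lowest, with a log2 fold change of 0.22 ± 0.048 for 6OHA (adjusted p = 0.00834) and 0.097 ± 0.039 for BEX (adjusted p = 0.132). The direct comparison did not pass by edgeR (0.13 ± 0.039, adjusted p = 0.0761) but did by DESeq2 (0.129, adjusted p = 0.0369). GC and length offsets ended the 6OHA call against untreated cells (0.126, adjusted p = 0.1). Without BEX replicate 2 the BEX comparison passed (0.114, adjusted p = 0.0376).

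Of the 6 disulfide isomerase and oxidase members, the oxidase was the 1 that was called, with either agonist. The shares over all tested genes were 13.6% with BEX and 14.8% with 6OHA. Ero1l (the table's symbol for Ero1a), which reoxidises protein disulfide isomerase, lies on chromosome 14 (Entrez gene 50527, 45283087 to 45318572). It had 71.0 CPM untreated, 94.3, 92.3 and 99.2 CPM with BEX and 86.2 CPM with 6OHA. The 6OHA library fell between the untreated and the BEX libraries. The log2 fold change was 0.43 ± 0.062 with BEX (adjusted p = 0.00051) and 0.28 ± 0.076 with 6OHA (adjusted p = 0.027), while the agonists differed by -0.15 ± 0.061 (adjusted p = 0.196, interval -0.278 to -0.0138). With GC and length offsets the 6OHA value was 0.17 (adjusted p = 0.182).

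The isomerases P4hb, Pdia3, Pdia4 and Pdia6 had log2 fold changes of -0.076 to 0.022 with BEX and -0.036 to 0.085 with 6OHA. P4hb, the classic protein disulfide isomerase, had 1022 CPM untreated, 1008 to 1027 CPM with BEX and 1016 CPM with 6OHA. Pdia5 had only 103 to 159 counts a library, and its interval in 6OHA against BEX was 0.104 to 0.928 (adjusted p = 0.145). Over all 20 folding members (chaperones, lectins, isomerases and oxidase), 2 were called with BEX, 3 with 6OHA and 0 between the agonists by edgeR, beside 13.6%, 14.8% and 6.53% of all tested genes (4 had an unadjusted p under 0.05, and DESeq2 called 1). With GC and length offsets 0 were called with 6OHA, where 2 had an unadjusted p under 0.05. Their 95% intervals lay within 1.2-fold either way for 14, 11 and 17 of the 20. A smaller SE gives a narrower interval, and the share of all tested genes within these limits was not counted.

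**Figure D3:**
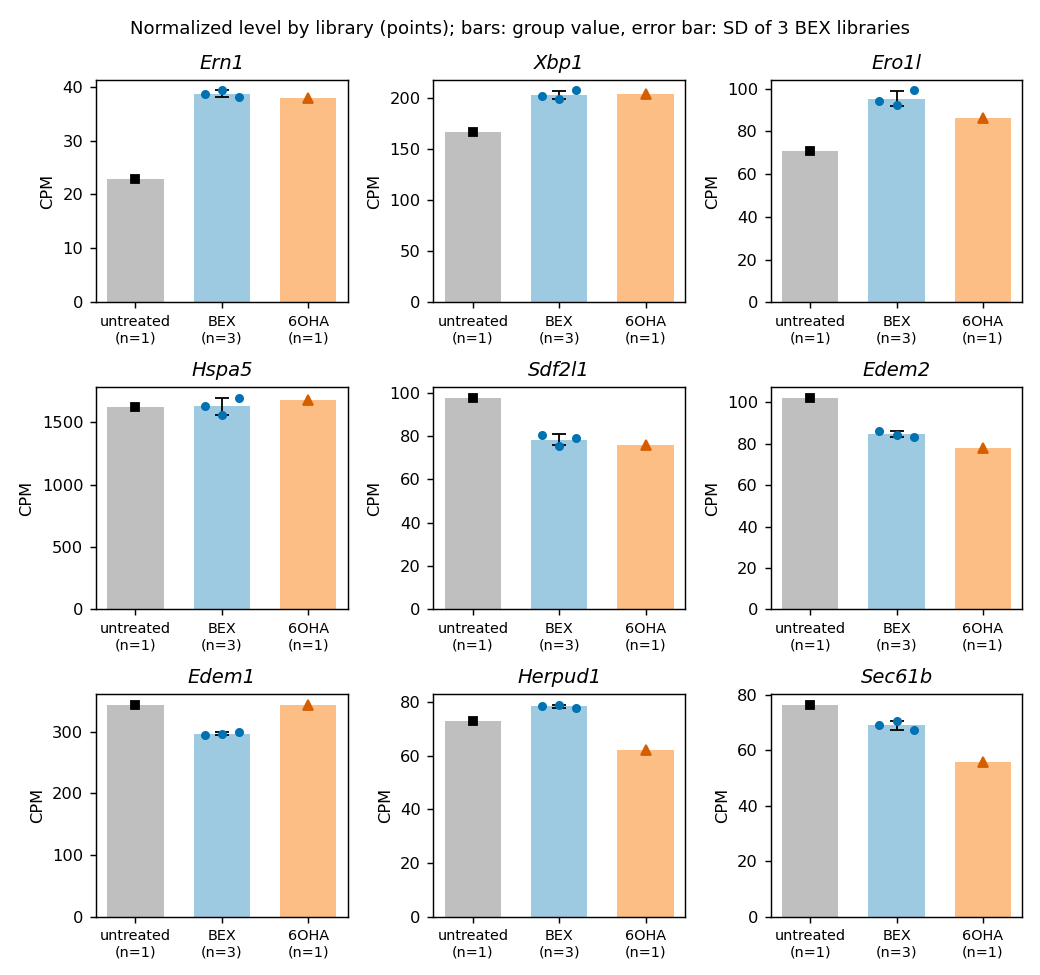
Normalized level (CPM, axes from 0) of 9 members in each library; bars give the single untreated library, the mean of 3 BEX libraries with its SD, and the single 6OHA library, and points are libraries. Ern1, Xbp1 and Ero1l are higher and Sdf2l1 and Edem2 lower in all 4 treated libraries, Hspa5 overlaps between groups, and Edem1, Herpud1 and Sec61b separate 6OHA from BEX.

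Of the 4 calls between the agonists, 3 (1 higher, 2 lower) were among the 7 tested ERAD members. The share over all tested genes was 6.53%. Of 13 further ERAD genes on a wider list, edgeR called 0 between the agonists. Edem1 and Edem2 encode mannosidase-like proteins that mark misfolded glycoproteins for removal. Edem2 (Entrez gene 108687, chromosome 2, 155701673 to 155729475) had 102 CPM untreated, 86.0, 84.4 and 83.2 CPM with BEX and 77.9 CPM with 6OHA. It fell with both: the log2 fold change was -0.28 ± 0.055 with BEX (adjusted p = 0.00465) and -0.39 ± 0.069 with 6OHA (adjusted p = 0.0025). The difference between the agonists did not pass (-0.12 ± 0.058, adjusted p = 0.282, interval -0.242 to 0.0085). Limma-trend on TPM ended the BEX call (-0.194, adjusted p = 0.063).

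Edem1 (Entrez gene 192193, chromosome 6, 108824045 to 108859356) had 343 CPM untreated, 294, 297 and 299.6 CPM with BEX and 344 CPM with 6OHA. The 3 BEX libraries were the lowest, and the 6OHA and untreated libraries were nearly equal. The log2 fold change was -0.21 ± 0.042 with BEX (adjusted p = 0.00493) and 0.0036 ± 0.052 with 6OHA (adjusted p = 0.982), and the difference between the agonists passed (0.21 ± 0.042, adjusted p = 0.0109). Limma-trend on TPM ended both calls (-0.165, adjusted p = 0.0748, and 0.225, adjusted p = 0.0784).

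Herpud1, a membrane scaffold of the ERAD complex with the ERSE-II site printed above (Entrez gene 64209, chromosome 8, 94386429 to 94395371), showed the opposite order. It had 73.0 CPM untreated, 78.5, 78.95 and 77.9 CPM with BEX and 62.1 CPM with 6OHA. The untreated library lay between the agonists. The difference of 6OHA from BEX was -0.34 ± 0.06 (adjusted p = 0.00616), and it missed the threshold only by limma-trend on TPM (-0.32, adjusted p = 0.0586). Its call against untreated cells was marginal (-0.23 ± 0.073, adjusted p = 0.049) and held in 3 of 9 alternatives. Without BEX replicate 1, for example, it was -0.23 (adjusted p = 0.0713).

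Derl1, a channel-forming derlin, had 201 CPM untreated, 222, 216 and 225 CPM with BEX and 196 CPM with 6OHA. Both the untreated and the 6OHA library lay below the BEX range. Only 6OHA against BEX passed (-0.18 ± 0.047, adjusted p = 0.0471), and it did not pass without BEX replicate 1 (adjusted p = 0.0974) or 3 (adjusted p = 0.0523). Without BEX replicate 2, BEX against untreated passed as well (0.154, adjusted p = 0.0237). Sel1l, the adaptor of the HRD1 ubiquitin ligase, had 147 CPM untreated, 169.8, 174 and 164 CPM with BEX and 166 CPM with 6OHA. All treated libraries exceeded the untreated one, and the BEX comparison passed (0.2 ± 0.052, adjusted p = 0.0233) while 6OHA did not (0.17 ± 0.064, adjusted p = 0.0917) unless BEX replicate 2 was left out (adjusted p = 0.0359). With GC and length offsets the BEX value was 0.142 (adjusted p = 0.0748).

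Syvn1, which encodes HRD1 itself, and Derl2 were not called, with log2 fold changes of -0.036 and 0.073 with BEX and -0.19 and -0.13 with 6OHA. Without BEX replicate 2, Derl2 was lower with 6OHA than with BEX (-0.218, adjusted p = 0.0271), as it was with GC and length offsets (-0.243, adjusted p = 0.0394). Both overlap a neighbour in the annotation, Syvn1 with Mrpl49 (593 to 754 counts a library) and Derl2 with Mis12 (1951 to 2313 counts). Hspa5 overlaps Rabepk (380 to 512 counts) and Pdia3 overlaps Catsper2 (55 to 95 counts). Whether counting used the strand of these stranded libraries is not given in the sources used here, so reads of such pairs may be shared.

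The translocon genes parted. Sec61b, the small β subunit of the Sec61 channel (Entrez gene 66212, chromosome 4, 47474661 to 47483233), had 76.4 CPM untreated, 69.2, 70.5 and 67.3 CPM with BEX and 55.8 CPM with 6OHA. The 6OHA library was the lowest and the BEX libraries lay between it and the untreated one. It fell with 6OHA (log2 fold change -0.45 ± 0.076, adjusted p = 0.00185), a call that held in every alternative run, and it was lower with 6OHA than with BEX (-0.31 ± 0.064, adjusted p = 0.0138; by limma-trend on TPM adjusted p = 0.0729). BEX itself did not pass (-0.15 ± 0.06, adjusted p = 0.135).

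Sec61a1, the pore-forming subunit of the same channel, was not called in any comparison, with 366 CPM untreated, 394 to 398 CPM with BEX and 370.4 CPM with 6OHA (adjusted p = 0.0811, 0.864 and 0.194). The GC and length offsets made it called higher with BEX (0.129, adjusted p = 0.0464). Ssr1, the α subunit of the translocon-associated TRAP complex, had 219.6 CPM untreated, 242, 242 and 244 CPM with BEX and 233 CPM with 6OHA. The untreated library was the lowest and 6OHA lay between it and the BEX range. The BEX call was marginal (0.15 ± 0.045, adjusted p = 0.0495) and held in 4 of 10 alternatives. It did not pass without BEX replicate 1 or 3 (adjusted p = 0.0945 and 0.0555), and with GC and length offsets the value was 0.033 (adjusted p = 0.735).

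Members with and without an ERSE can be set side by side. With BEX 0 of the 8 were called by edgeR or DESeq2, 1 had an unadjusted p under 0.05 by either, and log2 fold changes ran from -0.13 to 0.097. With 6OHA 1 of the 8 was called, Canx, with a range of -0.2 to 0.22, and between the agonists edgeR called 0 of the 8, of which 2 had an unadjusted p under 0.05, and DESeq2 called 1. Among the 21 members with a promoter entry and no ERSE, Herpud1 with its ERSE-II included, 8 were called with BEX (5 higher, 3 lower), 8 with 6OHA (3 higher, 5 lower) and 3 between the agonists (1 higher, 2 lower). The shares over all tested genes were 13.6%, 14.8% and 6.53%, and no test was made of this split.

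GC content and transcript length moved with these changes. Over the 35 members Spearman's rho between the log2 fold change and GC content was -0.47 with BEX, -0.55 with 6OHA and -0.45 for 6OHA against BEX, beside -0.19, -0.35 and -0.29 over 14255 tested genes with a known sequence. For length, rho was 0.56, 0.50 and 0.13 over the members, beside 0.22, 0.21 and 0.08. These are descriptions across genes that share libraries, and genes are not independent replicates. Members called lower with 6OHA had a median GC content of 56.3%, those called higher 46.4% and those not called 49.1%. Offsets fitted to GC content and length left 4 of the 9 calls with 6OHA (2 higher, 2 lower). With BEX they ended the calls of Sel1l and Ssr1 and added that of Sec61a1, for 7 in all, and Ern1 and Xbp1 were called higher in both.

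A wider list of 75 ER protein-handling genes, of which 74 were tested and Serpinh1 had 0 counts, gave 6 higher and 1 lower with BEX, 10 higher and 3 lower with 6OHA, and 1 higher and 2 lower for 6OHA against BEX. These are 7, 13 and 3 of 74, beside 13.6%, 14.8% and 6.53% of all tested genes. The medians were 0.0273, 0.057 and 0.0401. Retreg1, a receptor that feeds ER sheets into autophagy, had 125 CPM untreated, 194, 200.6 and 207 CPM with BEX and 158 CPM with 6OHA. The 6OHA library lay between the untreated and BEX libraries. It rose by 0.68 ± 0.053 with BEX (adjusted p = 2.67e-06) and 0.33 ± 0.066 with 6OHA (adjusted p = 0.0048), and 6OHA was below BEX (-0.34 ± 0.052, adjusted p = 0.00253).

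Erp29, a disulfide isomerase relative without the active-site pair, fell with BEX (-0.21 ± 0.049, adjusted p = 0.0124) and with 6OHA (-0.39 ± 0.061, adjusted p = 0.00111). Under the GC and length offsets it was at -0.252 (adjusted p = 0.00321) and -0.481 (adjusted p = 0.000195). Those offsets took the 5204 bases of its longest transcript, and whether that form is the one expressed here was not tested. Its difference between the agonists (-0.18 ± 0.05, adjusted p = 0.0496) held in 5 of 10 alternatives. The COPII coat gene Sec24a, the thioredoxin-like Tmx3, the oligosaccharyltransferase subunit Stt3a and the TRAP subunit Ssr3 were higher with both agonists, by 0.17 to 0.36 on the log2 scale. These 4 genes lost both calls with GC and length offsets (adjusted p = 0.061 to 0.463). The COPII gene Sec24d was higher with BEX (0.2 ± 0.055, adjusted p = 0.0314).

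Against untreated cells 6OHA also gave higher Edem3, Nploc4, Uggt1 and Hspa13 and lower Prkcsh and Tex264, and of these calls that of Nploc4 held with GC and length offsets (0.258, adjusted p = 0.0138). Mbtps2, a gene of ATF6 cleavage, was higher too (0.29 ± 0.086, adjusted p = 0.0408). With GC and length offsets it was not called (0.142, adjusted p = 0.381). Tram1, which helps chains enter the translocon, was higher with 6OHA than with BEX (0.17 ± 0.043, adjusted p = 0.0359). That call held in 6 of 10 alternatives, and not with GC and length offsets (adjusted p = 0.0611) or without BEX replicate 1.

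The agonists also differed in transcripts known to lie downstream of PERK and ATF4, an arm that kinases other than PERK can start as well. On a list of 12 such genes, 11 were tested and Vldlr had 0 counts. With BEX 5 were higher and 1 lower (median 0.28), with 6OHA 0 were higher and 1 lower (median -0.01), and for 6OHA against BEX 0 were higher and 4 lower (median -0.28). The shares over all tested genes were 13.6%, 14.8% and 6.53%. For 6OHA against untreated cells and against BEX, DESeq2 gave the same counts, and by edgeR 1 and 0 genes were higher at an unadjusted p under 0.05. With GC and length offsets 6OHA against untreated cells gave 0 calls. There 4 of the 11 were higher and 0 lower at an unadjusted p under 0.05. Between the agonists these offsets gave 0 higher and 5 lower calls. Atf4 had 291 CPM untreated, 390.0, 396 and 409.6 CPM with BEX and 289 CPM with 6OHA. The BEX libraries stood apart from the other 2, and the log2 difference of 6OHA from BEX was -0.46 ± 0.045 (adjusted p = 0.00012). With GC and length offsets that difference was -0.342.

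Trib3, a pseudokinase induced by ATF4, had 37.3 CPM untreated, 59.3, 58.0 and 55.8 CPM with BEX and 31.5 CPM with 6OHA, and Sesn2, a regulator of amino acid sensing, had 18.8 CPM, 34.8, 34.4 and 32.2 CPM and 20.6 CPM. The log2 difference of 6OHA from BEX was -0.87 ± 0.075 for Trib3 (adjusted p = 3.48e-05) and -0.71 ± 0.091 for Sesn2 (adjusted p = 0.000634). With GC and length offsets these differences were -0.699 and -0.544. Ddit3, which encodes CHOP, had 32.7 CPM untreated, 40.7, 38.5 and 37.5 CPM with BEX and 32.0 CPM with 6OHA, and missed the threshold with BEX (0.25 ± 0.079, adjusted p = 0.0547) and between the agonists (-0.28 ± 0.08, adjusted p = 0.0559). Ppp1r15a, the phosphatase subunit that restores translation, and Atf3 were not called in any comparison. Cebpb was lower with BEX (-0.39 ± 0.067, adjusted p = 0.00153) and with 6OHA (-0.43 ± 0.084, adjusted p = 0.00464), and under the GC and length offsets its values were -0.172 (adjusted p = 0.118) and 0.07 (adjusted p = 0.692).

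Chaperones of other compartments were set beside the ER genes. Of 9 tested cytosolic heat shock genes, 2 were higher with BEX and, with 6OHA, 2 were higher and 1 lower, beside 13.6% and 14.8% of all tested genes called. Hsph1, an HSP110 exchange factor, had 54.4 CPM untreated, 69.7, 71.2 and 75.01 CPM with BEX and 86.6 CPM with 6OHA. It rose by 0.41 ± 0.067 with BEX (adjusted p = 0.00119) and 0.67 ± 0.079 with 6OHA (adjusted p = 0.000136), and was the 1 gene of the list that differed between the agonists (0.27 ± 0.062, adjusted p = 0.0235, with 7 of 10 alternatives called). Hsp90aa1 was higher with both (0.16 ± 0.045 and 0.26 ± 0.055, adjusted p = 0.0331 and 0.00768), and Hspa1b was lower with 6OHA (-0.96 ± 0.28, adjusted p = 0.0338) but not with GC and length offsets (adjusted p = 0.126).

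Of 6 mitochondrial chaperones and proteases, Hspa9, Hspd1 and Lonp1 were higher with BEX, and Hspa9 and Hspd1 with 6OHA, beside 7.55% and 7.59% of all tested genes called higher. The Lonp1 call held in 7 of 10 alternatives, and the 6OHA call of Hspa9 in 7 of 9. Hspa9, the mitochondrial HSP70, rose by 0.23 ± 0.036 with BEX (adjusted p = 0.00112) and 0.18 ± 0.045 with 6OHA (adjusted p = 0.0191). Its ER counterpart Hspa5 was at 0.0019 ± 0.044 and 0.046 ± 0.053.

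**Figure D4:**
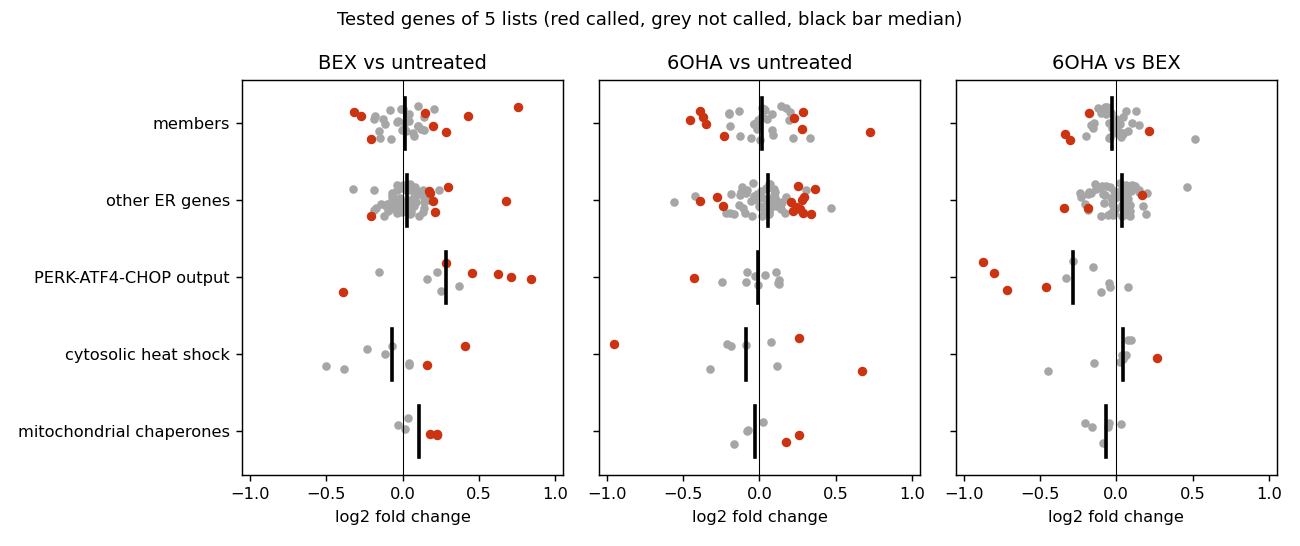
Log2 fold change (horizontal axis) of every tested gene on 5 lists in the 3 comparisons; red points were called, grey points were not, and black bars are list medians. Members centre near 0 (medians 0.0152, 0.0146 and -0.0264), while genes of PERK-ATF4-CHOP output have medians of 0.28 with BEX, -0.01 with 6OHA and -0.28 between the agonists.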

How the data were processed

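Libraries were made from poly-A RNA with a TruSeq stranded kit, per the labels' protocols. The submitters' processing notes name the mm10 build and StringTie 2.1.3b, HISAT2 2.1.0, Bowtie2, SAMtools 1.9, bcl2fastq 2.20.0 and Trimmomatic 0.38, without saying which step each tool served. The authors deposited counts, FPKM and TPM of each library side by side. The deposited counts, raw whole numbers per gene, were used for tests, the deposited TPM for levels between genes and for 1 alternative test, and the deposited FPKM were not used.

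All 5 libraries entered 1 edgeR 4.0.16 quasi-likelihood fit (R 4.3.3) with 3 groups, TMM factors (0.9942 to 1.004) and genes kept by filterByExpr (minimum count 10, minimum total 15). Spread came from the 3 BEX libraries (2 residual and 10.6 prior degrees of freedom), and the single untreated and 6OHA libraries were assumed to vary like them. Tests were two-sided, adjusted by Benjamini-Hochberg over 15462 genes at 0.05; SE and 95% intervals came from the same fit and cover no variation between cultures that these libraries do not hold. CPM are on TMM-scaled library sizes. BEX replicates differed beyond sampling noise (chi-square per gene 4.82 to 6.3) and were counted as 3.

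Alternatives were RLE factors, DESeq2 1.42.0, no low-count filter, a mean of at least 20 counts, limma-trend (limma 3.58.1) on log2(TPM + 1), offsets from splines on GC content and length (known for 92.2% of tested genes), leaving out each BEX library, and only the compared groups. Positions, promoters and overlaps came from RefSeq GRCm38.p6, to which 45679 IDs and all 36 members matched. GC content and transcript length were those of the longest GENCODE transcript of each gene.

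The members, lists and alternatives were chosen with earlier results of these data known. Named genes were: any member; values in every library for called members, sensors, Hspa5 and Hsp90b1; up to 3 called genes with the smallest adjusted p per other list and comparison; and Atf4, Ddit3, Trib3, Ppp1r15a and Atf3. Dnajb9, Dnajc3, P4hb, Sec61a1 and Mbtps2 were given values after these were seen.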

Additional observations from a re-analysis of the deposited data

How the results depend on the processing

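For members called in at least 1 setting of a comparison, 242 of 288 values under the alternatives kept direction and side of the threshold, 34 lost a call, 12 gained one and 0 calls changed sign. Without the low-count filter 1216, 1134 and 190 genes were called for BEX and for 6OHA against untreated cells and between the agonists, with 3, 6 and 1 other ER genes, and 1 member between the agonists. That setting also ended the calls of Atf6b, Ero1l and Herpud1 with 6OHA, of Sel1l and Ssr1 with BEX, and of Derl1, Edem1 and Sec61b between the agonists (adjusted p = 0.0633 to 0.125). By limma-trend on log2(TPM + 1) 908, 785 and 85 genes were called, with 4 members in BEX vs untreated and 0 between the agonists (9 members had an unadjusted p under 0.05, 11 by edgeR, and DESeq2 called 5), 4, 5 and 0 other ER genes (9 had an unadjusted p under 0.05), and member medians of 0.059 and 0.069 against untreated. With GC and length offsets 1298 genes, 4 members and 4 other ER genes were called in 6OHA vs untreated, 3 other ER genes in BEX vs untreated, and the member median between the agonists was 0.014. Leaving out a BEX library gave 7 to 11 members in BEX vs untreated, 8 to 12 in 6OHA vs untreated and 3 to 5 between the agonists. The same gave 7 to 11 other ER genes in BEX vs untreated, and 1 to 6 between the agonists, where 871 to 1660 genes in all were called; the highest of each came without BEX replicate 2. The cause of these shifts was not tested.

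No paired analysis was possible because no 2 groups share 2 replicate numbers: 6OHA has only replicate 2 and untreated only replicate 3. With only the compared groups, 6OHA vs untreated has no residual degrees of freedom and was not run. Counting depth limits Pdia5, which had 103 to 159 counts a library, more than the other members, and the single untreated and 6OHA libraries give no spread of their own.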
